A study of Mus musculus with 16 samples.

Results

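The comparison set *Sox2*-null mouse embryonic stem cells (ESCs) that lived on a human *SOX2* mutant, S113, against the same kind of cells that lived on their mouse *Sox2* transgene, a line labelled TSS. Its members were chosen by their labels, as the arrays of S113 clones 4 and 5 and those of TSS. They are 6 of 16 arrays and 3 of 8 lines, with 4 arrays of 2 S113 clones and 2 arrays of the single TSS line. The other lines were 2 clones carrying wild-type human *SOX2*, called SWT, and 3 clones labelled Sox2 95 mutant.

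All lines were of strain 129/Ola and lacked endogenous *Sox2*. They shared a mouse *Sox2* transgene under tetracycline control, a tet transactivator and a red fluorescent protein, DsRed, that is always on. The S113 cells received a PiggyBac vector with the human *SOX2* 113 mutant and hygromycin resistance, and grew in doxycycline (1 µg/mL), which shuts the mouse transgene off, and hygromycin (300 µg/mL). Colonies were picked and expanded, so each S113 line is 1 clone. TSS grew without doxycycline (0 µg/mL), which leaves the mouse transgene on, and the labels name no PiggyBac vector and no hygromycin for it. SWT clones 4 and 5 were made and grown as the S113 clones were, with the wild-type human protein. Mutant protein, species of SOX2, promoter, doxycycline, hygromycin and clone picking therefore all differ between S113 and TSS, and cannot be told apart. S113 against SWT leaves the mutant protein and the clone.

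SOX2 is a DNA-binding protein of the HMG-box family that works in ESCs as a partner of OCT4, the product of *Pou5f1*. The pair binds composite DNA elements near genes of the pluripotency network and of early lineages, and the spacing of the 2 half-sites sets which faces of the proteins touch. The S113 mutation lies in the face that pairs with OCT4 on elements like that of *Fgf4*, a growth factor gene of ESCs. ESCs without any SOX2 are known to lose self-renewal and to flatten toward trophectoderm. Mouse ESCs are also known to answer interferon weakly, and to give rise to a minor share of cells with primitive endoderm genes in culture.

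Levels are log2 intensities of Illumina bead arrays after background correction and quantile normalization, so a difference of 1 is a 2-fold difference, and the detection floor of an array lay between 4.60 and 4.73. Between 48.6% and 52.5% of probes were detected on each of the 16 arrays, and 9412 genes were tested. The 8 defining ESC markers were detected on all 6 arrays of S113 and TSS, with a summed intensity of 34025 to 36298 in S113 and 38547 to 39185 in TSS. Of 8 fibroblast (feeder cell) markers, 2 were detected on all S113 arrays and 5 on both TSS arrays, *Col1a2* and *Postn* were detected on none, and the sum was 214 to 266 in S113 and 259 to 268 in TSS. Of 8 trophectoderm markers 3 were detected on all S113 arrays and 6 on both TSS arrays. Such counts ask for 4 arrays in S113 and 2 in TSS, and are stricter for S113. The trophectoderm markers *Cdx2*, *Gata3* and *Ascl2* were each detected on 3 of 4 S113 arrays. The fibroblast markers *Dcn*, *Col1a1* and *Col3a1* were detected on 2, 1 and 0 S113 arrays. Of 5 neuroectoderm markers with a probe 2 were detected on all S113 arrays and 2 on both TSS arrays, and the same numbers held for 5 mesoderm markers. The trophectoderm markers *Elf5* and *Hand1*, the mesoderm markers *Mixl1*, *Mesp1* and *Kdr* and the neuroectoderm marker *Pax6* were detected on none of the 6 arrays. The summed level was 937 to 1748 in S113 and 1248 to 1308 in TSS for trophectoderm, 154 to 216 and 147 to 164 for neuroectoderm, and 157 to 184 and 178 to 187 for mesoderm.

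The probe for *Sox2* read 7.63 and 7.72 on the arrays of S113 clone 4, 8.08 and 7.99 on those of clone 5 and 6.49 and 6.28 on those of TSS. Every S113 array was above both TSS arrays, by 1.47 ± 0.49 (log2, SE, n = 2 clones and 1 line), and the difference did not pass (limma adjusted p = 0.506). SWT clones read near background, at 4.77 and 4.88, and the probe was detected on 2 of 4 SWT arrays. The position of the probe is not given, so it is unknown whether it reads human *SOX2*, the mouse transgene or both, and the level checks no label.

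No gene passed the test between S113 and TSS. With limma (two-sided, Benjamini-Hochberg adjustment over all genes), 0 of 9412 genes (0%) had an adjusted p under 0.05, and the smallest, that of *Npy*, was 0.127. At an unadjusted p under 0.05 there were 789 genes (8.38%), of which 347 (3.69%) were higher and 442 (4.7%) lower in S113, where 471 are expected by chance. Because TSS is a single line, its spread is borrowed from the 7 clones, and the labels do not say whether its 2 arrays are separate cultures. With the arrays of all lines kept apart and the line as a random block, 94 genes passed, 30 higher and 64 lower in S113, at a consensus correlation of 0.73 between the arrays of a line. That fit enters the 2 arrays of each line as samples and uses this 1 correlation for all genes. It understates the spread of genes whose clones differ more than their arrays do. Passes in it are given below for comparison and are not support. Differences are therefore given below as values, with the adjusted p of the test over lines, and a number after ± is the SE of a log2 difference between S113 and TSS.

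By size, 377 genes (4.01%) were at least 2-fold apart, of which 217 (2.31%) were at least 2-fold higher and 160 (1.7%) at least 2-fold lower in S113, and in 214 (2.27%) and 160 (1.7%) of these every S113 array also lay beyond both TSS arrays. Without the size limit, S113 and TSS arrays were apart in 2431 genes (25.8%) above and 2241 (23.8%) below, so separation alone is common here. Both clones were each at least 2-fold above TSS in 109 genes (1.16%) and below it in 119 (1.26%). With a median shift between arrays in place of quantile normalization the split turned, with 166 genes higher and 237 lower, while the median over all genes went from 0.02 to -0.09. The deposited log2 values gave 547 and 446, and a background offset of 50 gave 93 and 92.

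S113 clone 4 lay 0.45 from TSS (root mean square log2 difference over all genes) and clone 5 lay 0.52, against 0.35 between the clones. SWT clones lay 0.49 and 0.44 from TSS and 0.31 from each other. The 2 arrays of a line differed by 0.16 in TSS, 0.19 in clone 4 and 0.18 in clone 5. From the SWT clones 4 and 5, S113 clone 4 lay 0.39 and 0.43 and S113 clone 5 lay 0.52 and 0.53, so that clone 5 was about as far from SWT as from TSS. Genes at least 2-fold apart from TSS numbered 359 for clone 4 and 532 for clone 5, against 194 between the clones, 244 and 328 for clone 4 from the SWT clones, and 468 and 559 for clone 5 from them. SWT differed from TSS by at least 2-fold in 328 genes (3.48%) and S113 from SWT in 293 (3.11%). Those comparisons share lines with S113 against TSS, and 0 genes passed in either (954, or 10.1%, and 876, or 9.31%, at an unadjusted p under 0.05).

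**Figure D1:**
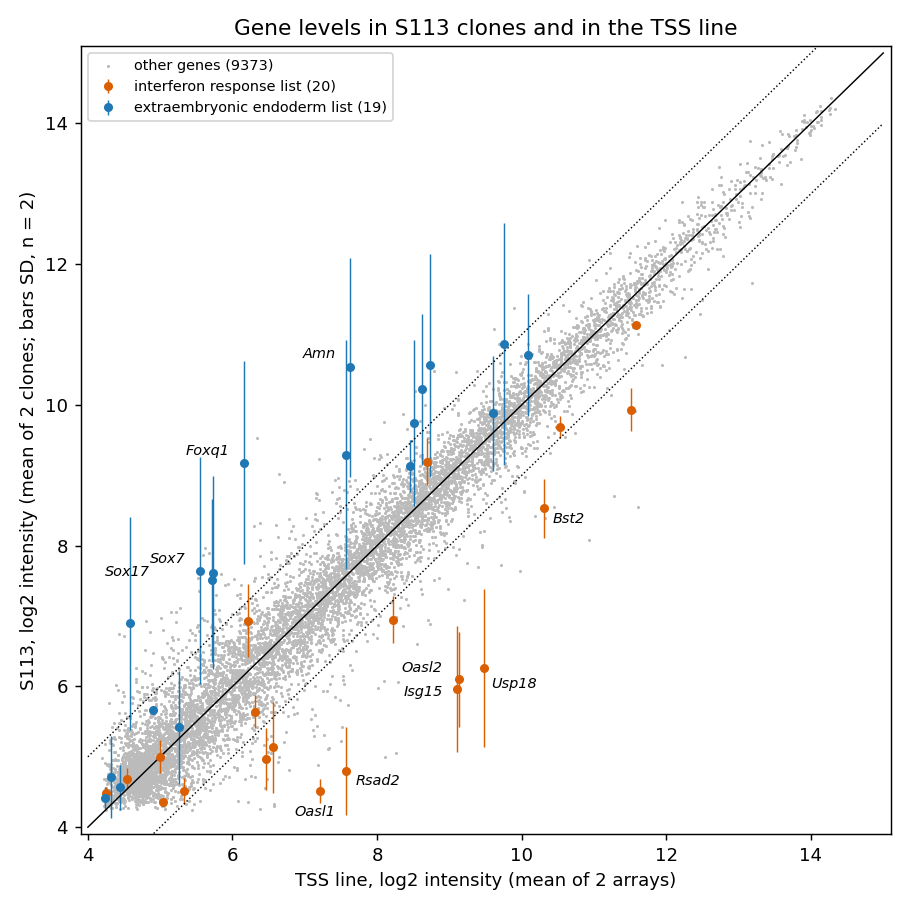
Level of each of 9412 genes in S113 (vertical axis, log2 intensity, mean of 2 clones) against TSS (horizontal axis, log2 intensity, mean of 2 arrays). Bars are the SD over the 2 clones and are drawn for the 2 coloured lists only. The solid line marks equal levels and the dotted lines a 2-fold difference. *Usp18*, *Isg15*, *Oasl2* and *Rsad2* lie below the lower dotted line, and *Foxq1*, *Amn*, *Sox17* and *Sox7* above the upper one with wide bars.

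Most genes of the interferon response read lower in both S113 clones than in TSS. Of 25 listed genes 20 were measured, 10 were at least 2-fold lower and 0 at least 2-fold higher in S113 (1.7% and 2.31% of all genes), and 11 were lower at an unadjusted p under 0.05 (4.7% of all genes). S113 and TSS arrays were apart for 15 genes below and 3 above (23.8% and 25.8% of all genes). *Oas1a*, counted in the 11 and in the 15, was kept only because both TSS arrays detected it. Its lower reading in S113 follows from that filter and is not a result. The median difference was -1.06, or -0.85 in clone 4 and -1.23 in clone 5, beside 0.02 over all genes. None passed after adjustment. Set beside each other, SWT against TSS had a median of -0.48 with 7 of the 20 genes at least 2-fold lower (1.74% of all genes), and S113 against SWT a median of -0.31. The median moved to -1.72 in the deposited log2 values and to -0.74 without a detection filter.

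The widest gaps, named after their values were seen, were those of *Usp18*, *Isg15* and *Oasl2*. *Usp18*, which takes ISG15 off proteins and dampens the interferon receptor, read 7.03 and 7.08 in clone 4, 5.42 and 5.51 in clone 5 and 9.46 and 9.50 in TSS. The clones differed from each other and both were below TSS, by -3.22 ± 1.07 (log2, SE, adjusted p = 0.504). Of the SWT clones, 1 was near the S113 level (6.85) and 1 near TSS (9.30). *Isg15*, a ubiquitin-like modifier, read 6.68 and 6.52 in clone 4, 5.42 and 5.25 in clone 5 and 9.09 and 9.13 in TSS (-3.14 ± 1.01, adjusted p = 0.486). *Oasl2*, of the oligoadenylate synthetase family of antiviral proteins, read 6.77 and 6.38 in clone 4, 5.60 and 5.64 in clone 5 and 9.16 and 9.11 in TSS (-3.04 ± 1.07, adjusted p = 0.536). For all 3 genes TSS was above every S113 and every SWT array.

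*Rsad2*, which encodes the antiviral enzyme viperin, was detected on both arrays of clone 4 at 5.39 and 5.09 and on both TSS arrays at 7.55 and 7.60, while clone 5 read 4.33 and 4.39. Its difference was -2.78 ± 0.41 (adjusted p = 0.287, unadjusted p = 0.000312), beside -2.42 for SWT against TSS. *Cmpk2*, a nucleotide kinase gene on the same chromosome, 12, was also below TSS in both clones, but without a gap between the clones. It read 4.58 and 4.87 in clone 4, 4.90 and 4.40 in clone 5 and 6.46 and 6.50 in TSS. The difference was -1.79 ± 0.25 (adjusted p = 0.287), beside -1.38 for SWT against TSS. *Cmpk2* is not on the list and was named among the genes with the smallest p.

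*Oasl1*, a relative of *Oasl2*, was detected on 1 of 4 S113 arrays. It read 4.75 and 4.53 in clone 4, 4.46 and 4.33 in clone 5 and 7.09 and 7.33 in TSS (-2.69 ± 0.78, adjusted p = 0.460). *Bst2*, whose product tethers budding virus to the cell, was well detected everywhere, at 8.83 and 8.83 in clone 4, 7.95 and 8.51 in clone 5 and 10.22 and 10.40 in TSS (-1.78 ± 0.51, adjusted p = 0.460). *Oas1a*, an oligoadenylate synthetase, was low even in TSS, where it read 5.19 and 5.45, against 4.53 and 4.75 in clone 4 and 4.56 and 4.21 in clone 5 (-0.81 ± 0.19, adjusted p = 0.426). It was kept only because both TSS arrays detected it, so these are given as values only. From TSS, SWT differed by -1.46 for *Oasl1*, -1.66 for *Bst2* and -0.85 for *Oas1a*. For *Oasl1* the SWT clones were far apart, at 4.76 and 6.74. Of the interferon genes named here, *Rsad2*, *Oasl1*, *Cmpk2*, *Usp18*, *Isg15* and *Oasl2* passed in the random block fit (adjusted p = 0.000445, 0.0214, 0.0259, 0.0284, 0.0357 and 0.0461). For *Usp18*, *Isg15*, *Oasl2* and *Rsad2* the S113 clones differed more than the arrays of a clone, which that fit does not take into account gene by gene.

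For the regulators *Irf9*, *Stat2*, *Irf1* and *Irf7* every S113 array lay below both TSS arrays. *Irf9* and *Stat2*, subunits of the complex that binds interferon response elements, differed by -1.27 and -0.67, and *Irf1*, an activator of the same genes, by -0.84. *Irf7*, the regulator that amplifies interferon production, was detected on both TSS arrays and on no S113 array, and was at least 1.28-fold lower in S113. The 3 genes with every S113 array above TSS, *B2m*, *Psmb9* and *H2-D1*, belong to antigen presentation. *B2m*, the light chain of class I molecules, and *Psmb9*, an immunoproteasome subunit, read 0.50 and 0.72 higher in S113, with arrays apart and no pass (adjusted p = 0.841 and 0.881). *Ifitm2* and *Ifitm3*, membrane proteins that block viral entry, differed by -0.44 and -1.58, and in SWT both were higher than in TSS, by 0.57 and 0.34.

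The sequences shown are 4 promoters of listed genes that were at least 2-fold lower in S113, because they hold the motif by which interferon-responsive genes are recognized. The interferon-stimulated response element was searched as GAAANNGAAA on either strand, overlaps counted, in the 250 bases before each start in RefSeq (GRCm38.p6). It was found in 4 of the 9 genes at least 2-fold lower that had a promoter (44.4%), in 4 of the 10 other measured members (40%) and in 240 of 7673 tested genes (3.13%), or 2.98% of all promoters. Of those 10 others 5 also had every S113 array below TSS, and 3 of the 4 with a match (*Oas1a*, *Stat2* and *Ifitm2*) were among them, so the shares do not set lower members against the rest. A match is a run of letters, and binding was not measured. Each sequence runs 5′ to 3′ along its gene up to the base before the start, with the matches in capitals, on the reverse strand for *Isg15*, *Rsad2* and *Bst2* and the forward strand for *Ifit3*.
Isg15, chr4:156200819-156201068: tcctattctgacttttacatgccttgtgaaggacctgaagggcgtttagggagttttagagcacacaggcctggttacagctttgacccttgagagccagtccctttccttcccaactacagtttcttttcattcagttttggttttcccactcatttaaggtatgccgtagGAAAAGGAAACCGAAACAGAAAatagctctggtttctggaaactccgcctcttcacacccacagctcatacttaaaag
Bst2, chr8:71537473-71537722: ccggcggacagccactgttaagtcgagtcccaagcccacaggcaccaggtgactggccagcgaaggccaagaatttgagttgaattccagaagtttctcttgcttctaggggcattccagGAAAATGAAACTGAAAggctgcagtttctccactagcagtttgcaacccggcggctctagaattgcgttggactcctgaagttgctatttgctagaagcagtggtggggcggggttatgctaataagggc
Rsad2, chr12:26456453-26456702: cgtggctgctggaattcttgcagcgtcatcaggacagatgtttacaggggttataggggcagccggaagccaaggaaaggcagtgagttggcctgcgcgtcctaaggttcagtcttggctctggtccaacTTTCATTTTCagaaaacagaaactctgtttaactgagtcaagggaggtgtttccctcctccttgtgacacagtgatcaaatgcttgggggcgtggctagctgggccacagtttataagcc
Ifit3, chr19:34583279-34583528: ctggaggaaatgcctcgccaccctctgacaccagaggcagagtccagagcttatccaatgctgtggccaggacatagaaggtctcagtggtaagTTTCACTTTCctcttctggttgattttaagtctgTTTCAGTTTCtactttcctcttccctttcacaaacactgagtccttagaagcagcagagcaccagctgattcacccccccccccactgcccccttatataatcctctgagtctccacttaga
*Isg15* held 3 overlapping matches in its own orientation, *Bst2* held 2 overlapping ones, *Ifit3* held 2 separate ones in the opposite orientation, and *Rsad2* held 1, also in the opposite orientation. *Ifit3*, a gene of the tetratricopeptide family that binds viral RNA, read 5.45 and 5.73 in clone 4, 4.70 and 4.66 in clone 5 and 6.52 and 6.61 in TSS (-1.43 ± 0.48, adjusted p = 0.512).

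**Figure D2:**
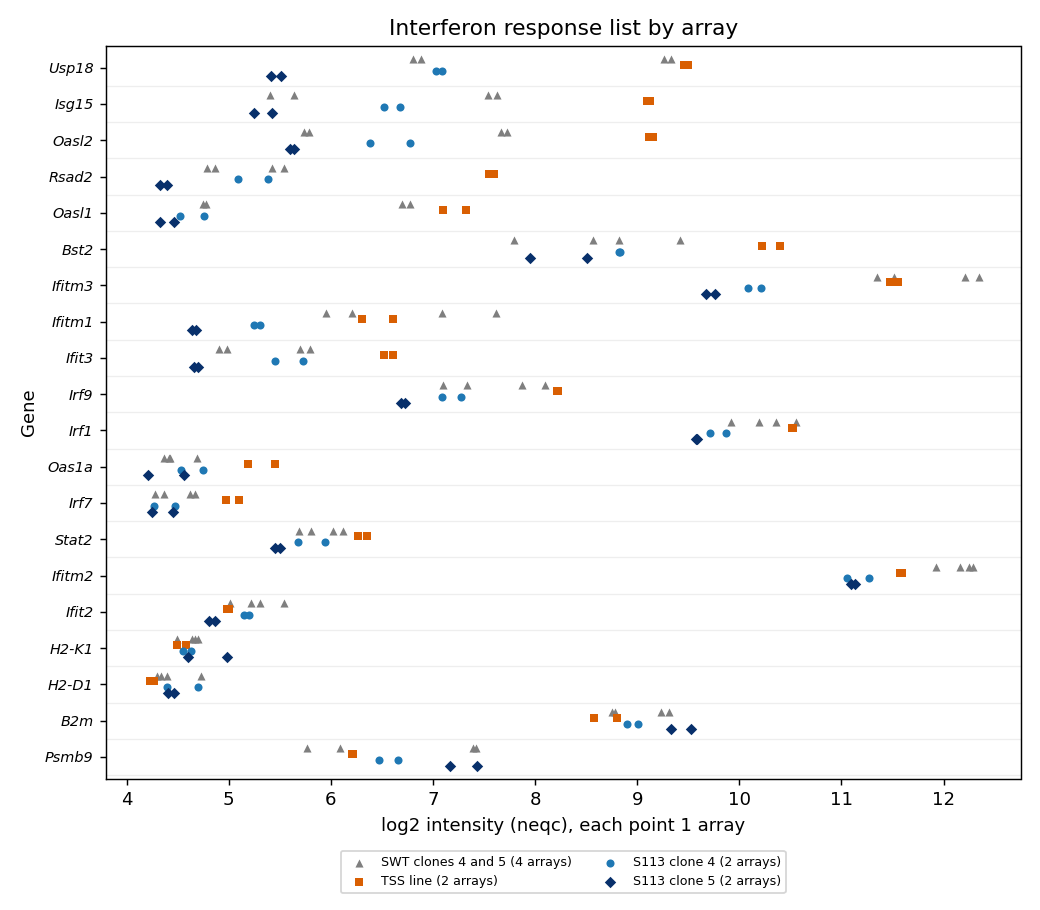
Log2 intensity (horizontal axis) of the 20 measured interferon response genes (rows, ordered by the difference between S113 and TSS), with 1 point per array. TSS squares lie to the right of all S113 points for 15 genes, and to the left for *B2m*, *H2-D1* and *Psmb9*. SWT triangles of *Usp18* and *Oasl1* fall in separate places for the 2 clones.

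Other genes with the smallest p were also lower in S113. *Npy*, which encodes neuropeptide Y, was not detected on any S113 or SWT array, at 4.32 and 4.27 in clone 4 and 4.21 and 4.25 in clone 5, and read 6.35 and 6.40 in TSS. That is at least 3.23-fold lower in S113, with a difference of -2.11 ± 0.19 and the smallest p of the comparison (1.35e-05). *Spink10*, a Kazal-type protease inhibitor gene, was at least 3.73-fold lower (4.50 and 4.24 in clone 4, 4.26 and 4.20 in clone 5 and 6.68 and 6.47 in TSS, adjusted p = 0.156). *Tgm3*, a transglutaminase gene of the epidermis, was at least 1.69-fold lower (4.25 and 4.25 in clone 4, 4.23 and 4.22 in clone 5 and 5.46 and 5.42 in TSS, adjusted p = 0.287). For all 3, S113 and SWT lay at or near background and TSS above it. *Tgm3* was 1 of 23 genes detected on both TSS arrays and on no other array, while *Npy* was also detected on 1 Sox2 95 mutant array and *Spink10* on 1 SWT array. All 3 were kept only because both TSS arrays detected them, so detection in TSS alone follows from that filter and is not a result. Their p-values, also those of the random block fit (adjusted p = 0.00109, 0.000653 and 0.00189), are given as values only.

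*Gnat1*, the rod transducin subunit, read 5.27 and 5.18 in clone 4, 4.53 and 4.57 in clone 5 and 7.18 and 7.19 in TSS (-2.29 ± 0.31). *Vps35l*, of the retriever complex that recycles membrane proteins, read 8.32 and 8.36 in clone 4, 8.43 and 8.57 in clone 5 and 10.16 and 10.21 in TSS (-1.76 ± 0.23). *Hspa4*, a chaperone that helps HSP70 release its nucleotide, read 8.53 and 8.33 in clone 4, 8.35 and 8.18 in clone 5 and 9.87 and 9.79 in TSS (-1.49 ± 0.23). These 3 had the same adjusted p of 0.287 and a like difference between SWT and TSS, of -2.11, -1.46 and -1.34, and all 3 passed in the random block fit (adjusted p = 0.000387, 0.00113 and 0.0112). *Phf19*, an accessory subunit of Polycomb repressive complex 2, differed from TSS by -1.44 in S113 and -0.61 in SWT. *1700016D06Rik*, a gene without a known role, had 4.77 and 4.75 in clone 4, 5.19 and 5.30 in clone 5 and 8.07 and 8.16 in TSS (-3.11 ± 0.49, adjusted p = 0.287, 0.000387 in the random block fit).

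Higher in S113 by the same rule were *Ccno*, *Accsl*, *Slc47a1*, *Rab38*, *Col9a2*, *Adam32*, *Wnt8a*, *Elovl4*, *Lat2* and *Zmiz1*, with adjusted p between 0.287 and 0.371. Of these *Slc47a1*, *Wnt8a*, *Accsl*, *Lat2*, *Rab38* and *Col9a2* passed in the random block fit (adjusted p = 0.000794, 0.0112, 0.0247, 0.0247, 0.0284 and 0.0302). *Slc47a1*, an exporter of organic cations, read 8.33 and 8.38 in clone 4, 8.40 and 8.39 in clone 5 and 6.74 and 6.82 in TSS (1.59 ± 0.24). *Ccno*, a cyclin of multiciliated cells, read 7.05 and 7.11 in clone 4, 6.92 and 6.72 in clone 5 and 5.57 and 5.63 in TSS (1.35 ± 0.20). *Accsl* was not detected in TSS (4.51 and 4.50) and was at least 2.37-fold higher in S113 (5.55 and 5.83 in clone 4, 5.94 and 6.11 in clone 5). SWT was also above TSS for these 3, by 1.23, 1.30 and 1.23, and for *Col9a2*, a collagen of cartilage, *Elovl4*, an elongase of very long fatty acids, and *Adam32*, by 1.56, 1.51 and 0.95, against 1.20, 1.22 and 1.40 in S113.

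A second set of these genes was higher in S113 than in both TSS and SWT. *Rab38*, a GTPase of pigment granule traffic, read 6.32 and 6.40 in clone 4, 6.19 and 5.73 in clone 5, 4.90 and 4.83 in TSS and 4.41 and 4.47 in the SWT clones. *Lat2*, an adaptor of immune receptors, read 6.68 and 6.67 in clone 4, 6.05 and 6.19 in clone 5 and 5.06 and 5.03 in TSS, with SWT clones at 4.79 and 4.68. *Zmiz1*, a transcriptional coactivator, differed by 1.23 from TSS and by 1.15 from SWT. *Wnt8a*, a secreted ligand, was not detected in TSS and was at least 2.48-fold higher in S113. Against SWT the adjusted p was 0.0707 for *Rab38* and 0.121 for *Lat2*.

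Genes of the extraembryonic endoderm, the lineage of yolk sac that primitive endoderm makes, read higher in S113, chiefly in clone 5. Of 21 listed genes 19 were measured, and 11 were at least 2-fold higher and 0 lower in S113 (2.31% and 1.7% of all genes). Arrays were apart above in 13 and below in 0 (25.8% and 23.8% of all genes). At an unadjusted p under 0.05 there were 3 genes higher (3.69% of all genes), and none passed after adjustment. The median difference was 1.23, made of 0.57 in clone 4 and 2.33 in clone 5, with 3 genes at least 2-fold above TSS in clone 4 and 12 in clone 5 (2.08% and 3.26% of all genes). SWT against TSS had a median of -0.29, and S113 against SWT one of 1.46. The summed level of the 8 defining markers was 2179 to 8063 over S113 arrays and 1359 to 1379 in TSS, and a larger share of such cells cannot be told apart from more RNA per cell in these bulk samples.

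*Gata6*, the factor that opens this lineage, read 9.03 and 8.78 in clone 4, 10.57 and 10.58 in clone 5 and 8.50 and 8.51 in TSS. *Sox17*, its later partner, read 5.76 and 5.90 in clone 4, 8.01 and 7.92 in clone 5 and 4.64 and 4.53 in TSS, the last detected on 1 of 2 arrays. *Sox7*, a close relative of *Sox17*, read 6.44 and 6.57 in clone 4, 8.81 and 8.75 in clone 5 and 5.69 and 5.41 in TSS. Clone 5 was far above TSS and clone 4 stood between them for all 3, and the differences of the means were 1.23 ± 0.94, 2.31 ± 1.21 and 2.09 ± 0.89 (adjusted p = 0.775, 0.663 and 0.601). SWT clone 5 read above S113 clone 4 for *Gata6* (9.32 against 8.90) and *Sox17* (5.88 against 5.83). It read below S113 clone 4 for *Sox7* (5.49 against 6.51). SWT clone 4 was below S113 clone 4 for all 3 (7.12, 4.45 and 4.71). *Gata4*, another factor of the lineage, was not detected in clone 4, TSS or SWT and was detected on both arrays of clone 5, at 4.71 and 4.87.

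*Amn*, an endocytic receptor subunit of visceral endoderm, read 9.40 and 9.47 in clone 4, 11.69 and 11.58 in clone 5 and 7.70 and 7.53 in TSS (2.92 ± 0.88, adjusted p = 0.479), and it passed in the random block fit (0.0209). *Foxq1*, a forkhead factor, read 8.19 and 8.14 in clone 4, 10.16 and 10.24 in clone 5 and 6.18 and 6.13 in TSS (3.03 ± 1.14, adjusted p = 0.564). *Dab2*, an adaptor for endocytosis, read 9.44 and 9.49 in clone 4, 10.92 and 11.03 in clone 5 and 8.54 and 8.71 in TSS (1.60 ± 0.57, adjusted p = 0.542). SWT lay -1.74 from TSS for *Dab2*, so its order from the lowest was SWT, TSS, clone 4, clone 5, whereas for *Foxq1* an SWT clone (7.91) reached close to S113 clone 4.

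Of the receptor and matrix genes, *Pdgfra*, the receptor kinase of primitive endoderm, differed by 1.79 ± 0.81 and *Col4a1*, a chain of basement membrane collagen, by 1.83 ± 1.13. For *Lamb1*, a laminin chain, clone 4 was below TSS (4.97 and 4.73 against 5.26 and 5.27) and clone 5 above it (6.13 and 5.84). *Ttr*, a carrier of thyroid hormone made by visceral endoderm, was detected on no array of S113 or TSS.

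**Figure D3:**
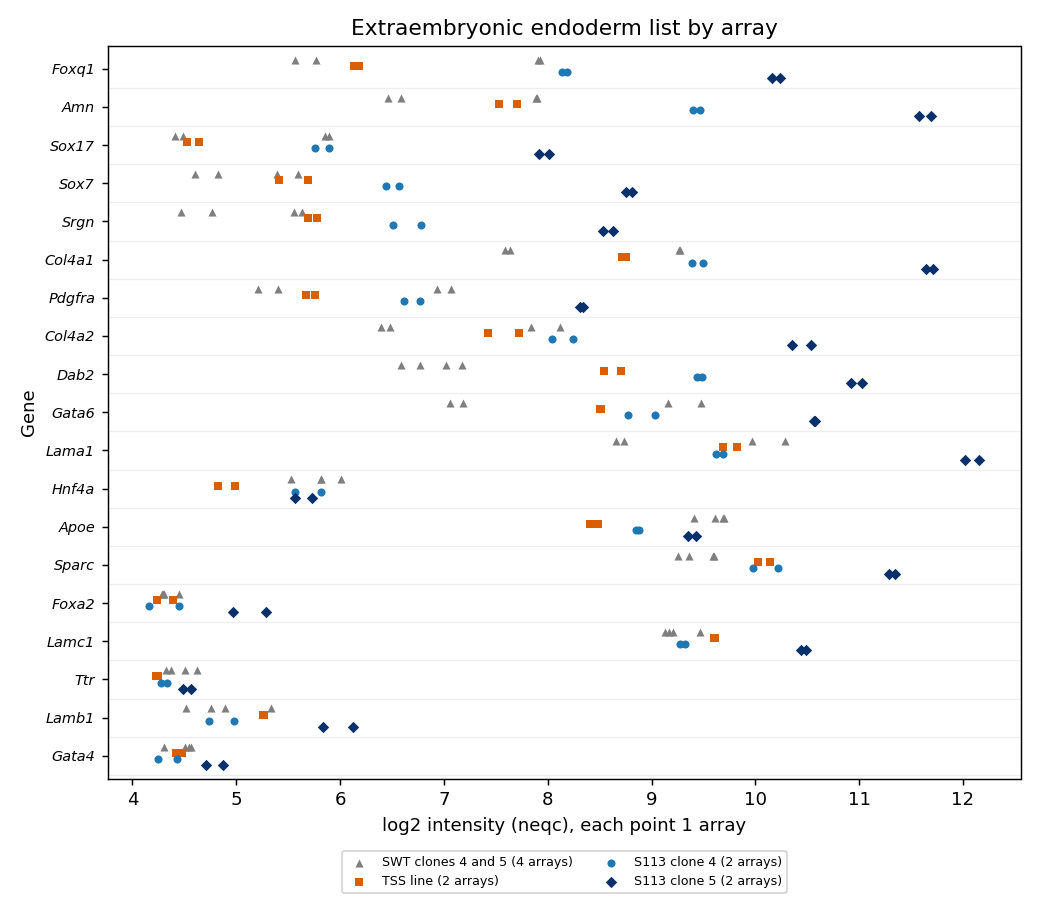
Log2 intensity (horizontal axis) of the 19 measured extraembryonic endoderm genes (rows, ordered by the difference between S113 and TSS), with 1 point per array. Dark diamonds (S113 clone 5) lie rightmost in most of the upper rows and pale circles (clone 4) lie between them and the TSS squares, as for *Sox7* and *Amn*. *Hnf4a* is at the same level in both S113 clones.

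Most genes of the core pluripotency network read lower in S113 than in TSS by less than 2-fold. Of 18 genes of the OCT4 and SOX2 network 17 were measured, with a median difference of -0.23 (SWT against TSS, -0.31). At least 2-fold higher in S113 was 1 gene and at least 2-fold lower 1 (2.31% and 1.7% of all genes). The higher gene was *Sox2* itself, whose probe may read a transgene. Arrays were apart for 11 genes below and 2 above (23.8% and 25.8% of all genes). *Pou5f1* read 11.46 and 11.55 in clone 4, 11.65 and 11.64 in clone 5 and 11.98 and 11.80 in TSS (-0.32 ± 0.68, adjusted p = 0.949). *Nanog*, which holds cells in self-renewal, read 11.59 and 11.41 in clone 4, 11.41 and 11.43 in clone 5 and 11.83 and 11.95 in TSS (-0.43 ± 0.96, adjusted p = 0.954). S113 arrays were below both TSS arrays in each, by less than the standard error. That error comes mostly from the Sox2 95 mutant clones, of which clone 2 read 9.70 for *Pou5f1* and 8.31 for *Nanog*. The SD over the S113 clones was 0.10 and 0.05, and over the SWT clones 0.08 and 0.20. With a single TSS line, whose own spread is unknown, a difference of that size cannot be resolved here.

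*Utf1*, whose enhancer holds OCT4 and SOX2 sites side by side, differed by -0.21 ± 0.58, *Zfp42* (REX1) by -0.47 ± 0.61 and *Esrrb*, a nuclear receptor of naive cells, by 0.11 ± 0.78. For these genes too the SE comes mostly from the Sox2 95 mutant clones. *Fgf4*, whose enhancer separates the sites, read 4.80 and 4.96 in clone 4, 4.85 and 4.77 in clone 5 and 5.13 and 5.01 in TSS, which is low in both groups. The SWT clones were higher, at 6.07 and 5.88. S113 thus differed by -0.23 ± 0.23 from TSS (adjusted p = 0.846) and by -1.13 from SWT (adjusted p = 0.150).

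*Sall4*, a zinc finger factor, and *L1td1*, an RNA-binding protein of ESCs, were lower by brightest probe in S113 and SWT than in TSS. *Sall4* read 11.33 and 11.19 in clone 4, 11.69 and 11.77 in clone 5 and 12.52 and 12.46 in TSS (-0.99 ± 0.35) and *L1td1* differed by -1.05 ± 0.39, against -1.20 and -1.30 for SWT. A dimmer *Sall4* probe, also detected on every S113 and TSS array, showed no such gap, with means of 9.08 in S113 and 9.07 in TSS. Another *Sall4* probe, near background, differed by -0.28, so the size of the *Sall4* difference depends on the probe. Of 20 naive genes 15 were measured, with a median of -0.32 and 1 at least 2-fold lower (1.7% of all genes). Arrays were apart for 9 naive genes below and 2 above (23.8% and 25.8% of all genes). Their smallest p was that of *Klf2*, a factor of naive pluripotency, at 9.92 and 9.95 in clone 4, 9.95 and 9.83 in clone 5 and 11.56 and 11.59 in TSS (-1.66 ± 0.45, adjusted p = 0.451, 0.0202 in the random block fit). SWT lay between, -0.52 from TSS. *Nr0b1* (DAX1) was detected on both TSS arrays and on no S113 array, at least 1.17-fold lower, *Spic* differed by -0.91 and *Klf5*, a factor of the naive network, by -0.39.

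Within the Sox family some differences were wide. Of 19 genes 10 were measured, 3 at least 2-fold higher (*Sox2*, *Sox7* and *Sox17*) and 3 at least 2-fold lower (2.31% and 1.7% of all genes). *Sox21*, a close relative of *Sox2* that acts as a repressor and is a SOX2 target, read 8.19 and 8.23 in clone 4, 8.89 and 8.88 in clone 5 and 11.57 and 11.66 in TSS. Both S113 clones were below TSS and below both SWT clones (9.61 and 11.01), and the difference from TSS was -3.06 ± 1.22 (adjusted p = 0.579). *Sox15*, which can stand in for SOX2 in ESCs, read 5.29 and 5.30 in clone 4, 5.31 and 5.26 in clone 5 and 6.50 and 6.56 in TSS (-1.24 ± 0.29, adjusted p = 0.402). *Sox13* read 4.99 and 5.02 in clone 4, 5.33 and 4.92 in clone 5 and 6.37 and 6.62 in TSS (-1.43 ± 0.51).

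**Figure D4:**
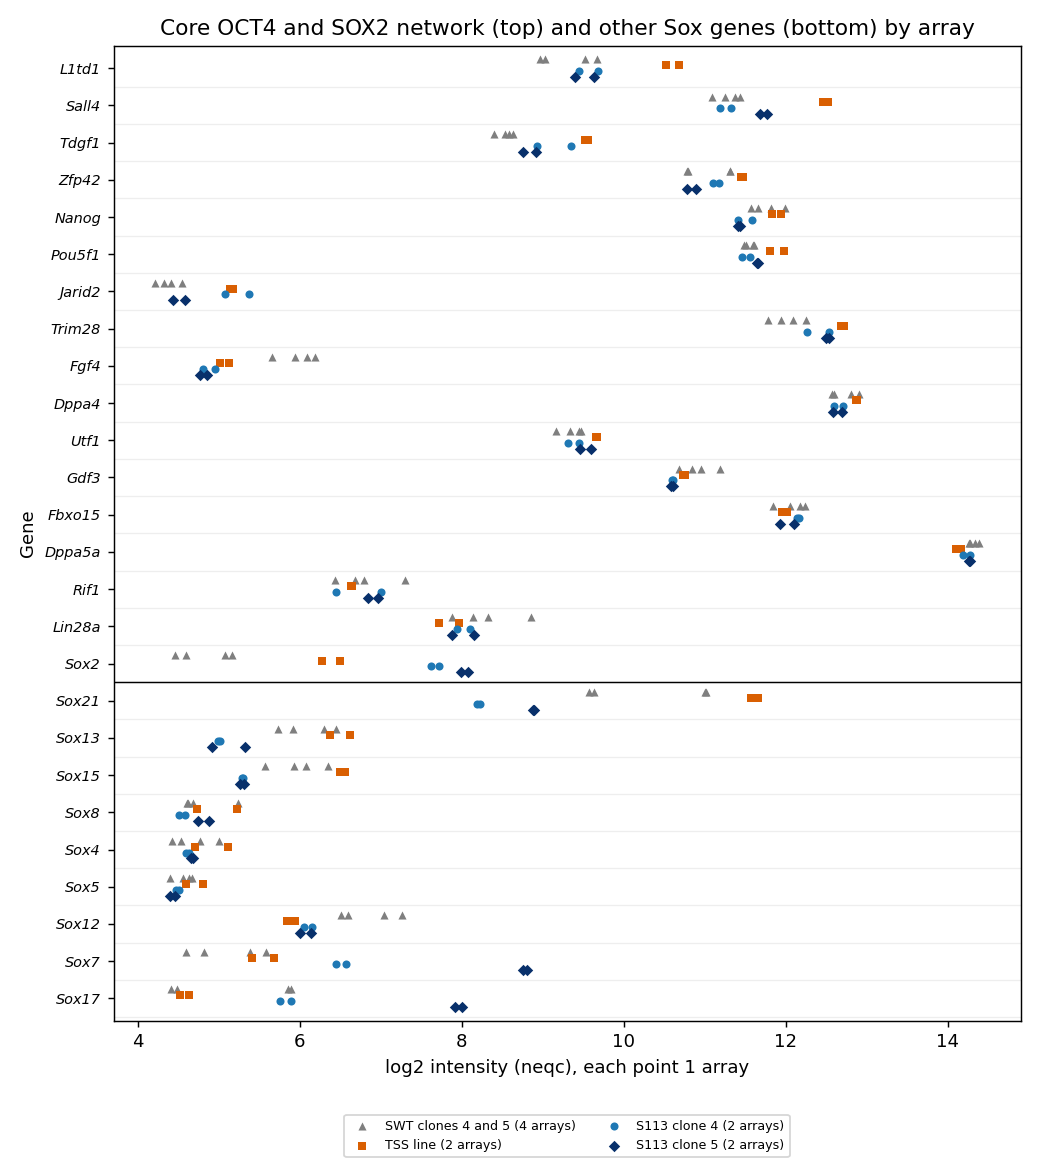
Log2 intensity (horizontal axis) of the 17 measured genes of the OCT4 and SOX2 network (above the line) and of 9 other Sox genes (below it), with 1 point per array. *Pou5f1*, *Nanog* and *Utf1* each lie within less than 1 unit, *Sox21* spreads from 8.19 to 11.66, and *Fgf4* of S113 and TSS lies left of SWT.

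Of the early lineage lists, WNT and FGF genes carried differences in both directions. Among 11 measured WNT response genes (of 19) the median was 0.37, with 2 genes at least 2-fold higher and 1 lower (2.31% and 1.7% of all genes). *Sp5*, a direct target of WNT signalling, read 8.62 and 8.46 in clone 4, 7.16 and 7.24 in clone 5 and 5.60 and 5.57 in TSS (2.28 ± 0.79, adjusted p = 0.525), and was higher in clone 4 than in clone 5. *Axin2*, a feedback inhibitor, followed the same order (7.07 and 7.16 in clone 4, 6.38 and 6.65 in clone 5 and 5.86 and 5.86 in TSS). *Notum*, a secreted enzyme that inactivates WNT ligands, was lower (5.37 and 5.75 in clone 4, 4.85 and 4.93 in clone 5 and 7.46 and 7.54 in TSS, -2.28 ± 0.49, adjusted p = 0.376, 0.0112 in the random block fit), while SWT differed from TSS by -0.48.

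*Fgf8*, a growth factor of the primitive streak, was not detected in TSS and was at least 2.64-fold higher in S113, whose 4 arrays lay between 5.88 and 6.12 (adjusted p = 0.402, 0.0271 in the random block fit). *Snai1*, a factor of epithelial to mesenchymal transition, differed by 1.21 and was higher in clone 5 (6.40 and 6.53) than in clone 4 (5.25 and 5.49). With *Sp5* they were the 3 genes at least 2-fold higher among 11 measured of 20 primitive streak and mesoderm genes (median 0.09, 0 lower). Over all genes 2.31% were higher and 1.7% lower by that size. *Cdx2*, a homeobox factor of trophectoderm and posterior mesoderm, was lower, by -0.89. Of 18 formative and primed epiblast genes 11 were measured (median -0.05, 2 higher and 1 lower by at least 2-fold). *Fgf5*, a marker of primed epiblast, differed by 1.12 and *Zic2*, a zinc finger factor, by -1.07 ± 0.18 (adjusted p = 0.310), and SWT differed from TSS by 0.12 for *Zic2*.

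Of 20 trophectoderm genes 17 were measured, with a median of -0.14 in S113 and -0.59 in SWT against TSS. *Krt8* and *Krt18*, the keratin pair of simple epithelia, were nearer to TSS in S113 (0.15 and -0.52) than in SWT (-2.16 and -2.58), and S113 and SWT differed by 2.31 and 2.06 (adjusted p = 0.308 and 0.308). *Tead4*, a factor that opens the trophectoderm programme, differed by 0.82, *Cdkn1c*, an imprinted cell cycle inhibitor, by 1.66 and *Tfap2a* by -0.48. *Krt8* of clone 4 (9.27 and 9.21) was below TSS (9.72 and 9.61) and that of clone 5 (10.32 and 10.46) above it. Of 20 neuroectoderm genes 7 were measured (median 0.24), with 0 higher and 1 lower by at least 2-fold (2.31% and 1.7% of all genes). *Fez1*, an axon growth protein, differed by -1.14 ± 0.23 (adjusted p = 0.371, 0.0432 in the random block fit). *En1*, a homeobox factor of the midbrain, was detected in TSS and on no S113 array.

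Of 20 genes of the 2-cell-like state, a rare state of ESCs in culture, 10 were measured, with a median of 0.64 and 3 at least 2-fold higher (2.31% of all genes). Arrays were apart for 7 genes above and 1 below (25.8% and 23.8% of all genes), and 0 had an unadjusted p under 0.05. The means of *Pramel7* and *Eif1a* were below TSS in both clones (-0.68 and -0.10). *Zscan4c*, which marks this state, read 9.76 and 9.84 in clone 4, 10.58 and 10.61 in clone 5 and 8.54 and 8.50 in TSS (1.68 ± 1.21, adjusted p = 0.757), and SWT clones read 7.71 and 6.50. *Tcstv1*, another gene of the state, differed by 1.32 ± 0.99. The standard errors were wide, and members of these families share sequence, so a probe may read several of them. Germ line genes had 13 of 20 measured, a median of -0.44 and arrays apart for 8 below and 1 above (23.8% and 25.8% of all genes). Of these 13, 1 was at least 2-fold higher and 3 lower (2.31% and 1.7% of all genes). Among the lower were *Dazl*, an RNA-binding protein of germ cells (-1.08, SWT -0.55 from TSS), and the X-linked homeobox gene *Rhox6* (-1.27, SWT -1.33 from TSS).

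DNA methylation genes (9 of 18 measured) had a median of 0.06, with *Gadd45a*, a stress gene that has been tied to demethylation, at -1.28 ± 0.44 and *Tdg*, a repair glycosylase, at 0.54. Imprinted genes (18 of 26) had a median of -0.04, with *Grb10*, an inhibitor of insulin signalling, 0.83 higher and *Igf2*, a fetal growth factor, 0.55 higher. *Uty*, the 1 gene measured of 9 Y-linked genes, read 5.17 and 4.97 in clone 4, 4.73 and 4.85 in clone 5 and 4.77 and 4.84 in TSS, in the same range.

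The FGF and ERK response (16 of 21 measured) had a median of 0.22, and its immediate early genes *Egr1* and *Fos* read lower. *Egr1* read 11.48 and 11.53 in clone 4, 11.06 and 11.09 in clone 5 and 12.46 and 12.49 in TSS (-1.18 ± 0.38, adjusted p = 0.486, 0.0471 in the random block fit) and *Fos* differed by -1.37 ± 0.55, whereas *Ier3*, another early gene, was 0.84 higher. For *Egr1*, *Fos* and *Ier3*, SWT differed from TSS by -0.65, -1.19 and 0.78. The LIF and STAT3 response (15 of 17) had a median of -0.25. *Stat3*, the factor LIF acts through, differed by -0.94 in S113 and -0.81 in SWT, and *Socs2*, a feedback inhibitor, by -0.63 and 0.19. Dimmer *Stat3* probes, also detected on every S113 and TSS array, differed by -0.53 and -0.29 in S113, so the size depends on the probe. NODAL and TGF-beta genes (14 of 19) had a median of 0.03, with *Furin*, a protease that activates NODAL, at 1.03, *Id2*, an inhibitor of differentiation factors, at -1.18 and *Lefty1*, a NODAL antagonist, at 0.69. For *Furin*, *Id2* and *Lefty1*, SWT differed from TSS by 0.61, -1.25 and 0.86.

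Respiratory chain genes read mostly higher, by less than 2-fold. Of 76 genes 70 were measured, 11 higher and 2 lower at an unadjusted p under 0.05 (3.69% and 4.7% of all genes). By at least 2-fold 0 differed (4.01% of all genes), and the median was 0.18. Arrays were apart for 40 above and 9 below (25.8% and 23.8% of all genes). SWT against TSS had a median of 0.21. *Uqcr10*, of complex III, read 13.37 and 13.30 in clone 4, 13.36 and 13.50 in clone 5 and 12.67 and 12.79 in TSS (0.65 ± 0.17, adjusted p = 0.439), and *Ndufs6*, of complex I, 12.78 and 12.88 in clone 4, 12.92 and 12.93 in clone 5 and 12.15 and 12.28 in TSS (0.66 ± 0.19). The mitochondrial ribosome (69 of 75) had a median of 0.13, with *Mrps12* at 0.69 and *Mrpl15* at -1.13 (SWT 0.57 and -1.39 from TSS).

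Medians of the stress and growth lists lay between -0.12 and 0.06, beside 0.02 over all genes. The median was -0.12 for amino acid stress and ATF4 targets (31 of 38 measured), in which *Atf4* itself read 5.26 and 5.27 in clone 4, 5.38 and 5.48 in clone 5 and 6.82 and 6.66 in TSS (-1.39 ± 0.38, adjusted p = 0.451, 0.0302 in the random block fit, with SWT -1.14 from TSS). It was 0.03 for heat shock and chaperones (19 of 23), 0.06 for the p53 response (18 of 21), 0.04 for cholesterol synthesis (18 of 24) and -0.11 for glycolysis and hypoxia (26 of 31), where *P4ha2*, a collagen prolyl hydroxylase, was 1.69 higher, most in clone 5 (8.96 and 9.07 against 7.04 and 7.26 in clone 4). Epithelial and mesenchymal adhesion genes (19 of 29) had a median of -0.17. *Vim*, the mesenchymal filament vimentin, read 8.64 and 8.70 in clone 4, 8.72 and 8.63 in clone 5 and 9.85 and 9.68 in TSS (-1.10 ± 0.27, adjusted p = 0.426, 0.0289 in the random block fit), and *Cdh1*, E-cadherin, differed by -0.79 and *Ctnnb1*, its cytoplasmic partner, by -0.50. Embryonic fibroblast genes (12 of 19) had a median of 0.06, with *Acta2*, smooth muscle actin, 1.69 higher and *Dcn*, a matrix proteoglycan, -1.20 (SWT 1.28 and -1.12 from TSS).

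The 2 S113 clones also differed from each other. Among genes at least 2-fold from TSS, *Akr1cl* was highest in clone 4 over clone 5 (7.88 and 7.82 against 5.89 and 5.77, with TSS at 5.71 and 5.78), followed by *Cdh3*, P-cadherin (6.72 and 7.08 against 5.23 and 5.35, TSS 7.48 and 7.58). *Pga5*, a pepsinogen gene, and *Hs3st1*, a heparan sulfate sulfotransferase gene, were highest in clone 5 over clone 4. *Pga5* read 7.23 and 7.39 in clone 5, 4.75 and 4.89 in clone 4 and 8.34 and 8.23 in TSS, and *Hs3st1* read 10.33 and 10.19 in clone 5, 7.87 and 7.68 in clone 4 and 6.60 and 6.68 in TSS. With clone 5 left out, 196 genes (2.08%) were at least 2-fold higher and 163 (1.73%) lower than TSS, and with clone 4 left out 307 (3.26%) and 225 (2.39%).

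Chromosome 8 set the clones apart. The median of its 515 genes was -0.20 from TSS in clone 5 (-0.23 and -0.19 by array replicate) and 0.11 in clone 4 (0.10 and 0.13), and 0.04 and 0.06 in the SWT clones. Clone 5 was below clone 4 in 83.3% of these genes, with a median of -0.35. The other chromosomes lay between -0.04 and 0.07 in both clones. With the chromosome cut into 4 parts of near equal gene number, the difference between the clones was -0.02 in the first (128 genes) and -0.44, -0.40 and -0.39 in the next 3 (129 genes each). *Klf2*, *Bst2*, *Col4a1*, *Zfp42*, *Cdh1*, *Cdh3*, *Adam32* and *1700016D06Rik* lie on this chromosome, and its part in their values was not tested. The size depended on the processing, with medians from 0.02 (median shift) to 0.14 (deposited log2 values) in clone 4 and from -0.0614 (no detection filter) to -0.31 (median shift) in clone 5.

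**Figure D5:**
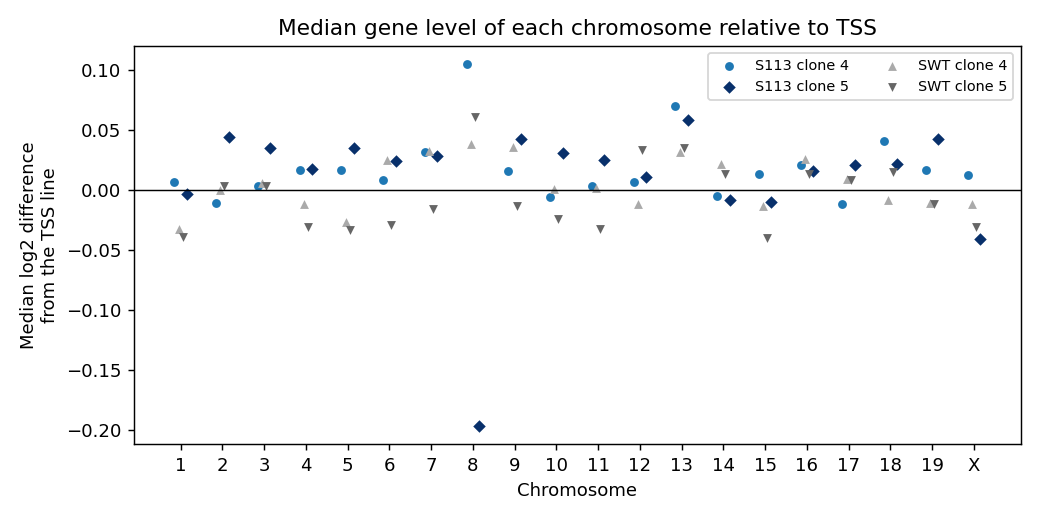
Median log2 difference from TSS (vertical axis) of the genes of each chromosome (horizontal axis), for S113 clones 4 and 5 and SWT clones 4 and 5. On chromosome 8, S113 clone 5 lies at -0.20 and clone 4 at 0.11.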

How the data were processed

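The authors deposited scanner intensities, not normalized, for 25697 probes, with a detection p-value for each, and a table of log2 values, background corrected and quantile normalized as the values show. The submitters' processing notes name BeadStudio 3.2, RMA and lumi, with no role for each. The total RNA was amplified and biotin labelled, and the labels give no chip or scan.

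R 4.3.3 with limma 3.58.1 was used. Its neqc function took the background from the detection p-values, added an offset of 16, and log2 transformed and quantile normalized the intensities. Of the probes, 23978 name a gene and 23962 matched RefSeq by Entrez identifier. A probe was kept if its detection p was under 0.05 on both TSS arrays or on each array of any 2 lines, which left 12865, and each of 9412 genes was read from its brightest probe. A gene kept through TSS alone was bound to read near background in the other lines. This holds for *Npy*, *Spink10*, *Tgm3*, *Oas1a* and *Nr0b1*. Arrays were averaged per line and all 8 lines entered 1 limma fit (lmFit, eBayes, two-sided), in which TSS was assumed to vary like the others. No test was made on lists, distances or chromosomes. Where no array of a group detected a gene, the fold is a lower bound, taken over the lowest signal among detected probes of each array. The number of lines (2 S113 clones and 1 TSS line) limits the precision, and p-values measure the spread between lines.

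Members and the 27 gene lists were chosen with earlier results of these data known. The lists covered the core OCT4 and SOX2 network, primitive streak and mesoderm, naive pluripotency, extraembryonic endoderm, formative and primed epiblast, neuroectoderm, trophectoderm, embryonic fibroblasts, the 2-cell-like state, germ line, DNA methylation, imprinted and Y-linked genes, amino acid stress, mitochondrial ribosome, respiratory chain, cholesterol synthesis, glycolysis and hypoxia, FGF, LIF, WNT, NODAL, p53 and interferon responses, heat shock, the Sox family and adhesion. Named genes were the 10 highest and 10 lowest by p among those at least 2-fold apart with no overlap of arrays (0 passed), up to 4 members of each list by p, the ESC genes and cell type markers, and the 4 genes most different between the clones. Other list members were named after their values were seen. On simulated lines with 200 changed genes among 9412, the fit for S113 against TSS recovered 30% of genes changed by 1 on the log2 scale, 78% by 2 and 94% by 4, with 11 false calls. The changed genes were drawn at random, and the simulated TSS had the spread of the other lines. The shares therefore do not hold for genes that vary widely between lines, or if TSS varies otherwise.

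Same-numbered arrays of S113 and TSS lines did not deviate together (r between -0.03 and 0.01 over 3 pairs of lines), so the numbers were not taken to pair them. Alternatives were the deposited log2 values, an offset of 50, a median shift, 3 other filters, the mean of a gene's probes, 3 treatments of the arrays, trended and robust eBayes, a fit without the Sox2 95 mutant clones and leaving out each clone or TSS array.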

Additional observations from a re-analysis of the deposited data

How the results depend on the processing

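No gene passed between S113 and TSS under the other normalizations, filters and probe rules, and 0 to 1 passed when a clone or TSS array was left out. That 1 was *Npy*, without Sox2 95 mutant clone 2 (adjusted p = 0.0425) and with trend and robust moderation (1 gene, 1 lower, adjusted p = 0.0301). The treatment of the 2 arrays of a line decided the count. With the line as a random block and no replicate block, 94 genes passed (30 higher, 64 lower), with 93 for SWT against TSS and 218 for S113 against SWT. With the replicate block added these were 72 (23 and 49), 73 and 183, though the numbers share only a name. With arrays as independent samples, which understates the spread, they were 912 (418 and 494), 1249 and 1105. S113 against SWT gave 2 with the deposited log2 values, 17 without the Sox2 95 mutant clones and 0 to 145 with a line or array left out, the highest without Sox2 95 mutant clone 2. SWT against TSS gave 1 without a detection filter.

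Genes at least 2-fold higher and lower numbered 93 and 92 with offset 50 and 547 and 446 in the deposited values, in which low levels are spread further. The share higher was 57.6% and became 41.2% with a median shift. The interferon median was -1.72 in the deposited values, -1.35 with either stricter filter and -0.74 without a filter, which adds genes near background. Extraembryonic endoderm genes at least 2-fold higher ranged from 3 (without S113 clone 5) to 12 (without S113 clone 4). The distance of S113 clones 4 and 5 from TSS was 0.34 and 0.40 with offset 50, 0.66 and 0.75 in the deposited values and 0.35 and 0.40 unfiltered. The chromosome 8 median of clones 4 and 5 was 0.0791 and -0.147 with offset 50, 0.14 and -0.27 in the deposited values, 0.0163 and -0.309 with a median shift and 0.0507 and -0.0614 unfiltered, and -0.26 in clone 5 with the stricter filter.

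With a clone or TSS array left out, the difference of *Uty* ranged from -0.020 (without S113 clone 4) to 0.26. It ranged from -0.10 to 0.34 for *Gata4*, from -0.41 to 0.72 for *Lamb1* and from -0.42 to 0.72 for *Krt8*, each lowest without S113 clone 5. It ranged from -0.12 (without TSS array 1; -0.0762 without S113 clone 5) to 0.29 for *Gata3*, and from -0.22 to 0.15 for *Ascl2*, highest without S113 clone 5 and 0.0646 without TSS array 1. Many genes lie near the detection floor, and their differences are understated. The cause of these changes was not tested where the setting itself does not give it.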
